A study of Mus musculus with 51 samples.

Results

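The genes described here are the Hsp70 family members Hspa8, Hspa5, Hspa9, Hspa4, Hspa4l and Hsph1 with the cofactors Dnaja1 and Bag3. They were chosen by name as 8 of the 6248 genes listed in the files of a GeoMx experiment on the mouse cochlea, in which barcoded probes are cut loose by light over selected tissue areas and then sequenced. The study's title concerns activation of the heat-shock pathway by the compound TRC-051384 and the protection of spiral ganglion neurons, but all regions analysed here came from animals labelled with noise or mock exposure alone. Sections of 6 µm came from fresh-frozen cochleae of 16-week-old CBA/CaJ males, 5 for each treatment. Noise groups received 100 dB SPL broadband noise for 2 h, and mock groups received none. Titles add 4 h to both exposures, whereas the design text places collection directly after noise, so the interval between noise and collection is uncertain.

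The regions fell into 4 groups: 16 of mock neurons, 13 of noise neurons, 14 of mock supporting cells and 8 of noise supporting cells. Noise neurons replicate 6 held the same value for every gene and was left out, which leaves 12 in that group and 50 regions in all. The labels do not say which animal a region came from, and since each group holds over 5 regions from 5 animals, some of its regions share 1. P-values over regions are therefore too small throughout. Names of captured areas differ between mock and noise, so treatment and slide or scan cannot be told apart.

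Hsp70 proteins bind exposed hydrophobic stretches of unfolded proteins and release them through a cycle of ATP hydrolysis and nucleotide exchange. J-domain proteins such as Dnaja1 deliver clients and stimulate the ATPase. Exchange factors, among them the Hsp110-type proteins Hspa4, Hspa4l and Hsph1 and the co-chaperone Bag3, speed the release of ADP, and in the cochlea this machinery is known for its induction by heat and sound.

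By the RefSeq annotation of GRCm38.p6, which is the build the submitters' notes name, the genes lie apart from each other: Hspa8 at chr9:40801276-40805202, Hspa5 at chr2:34772090-34776529, Hspa4 at chr11:53259814-53300479, Hspa4l at chr3:40744500-40796103, Hsph1 at chr5:149616843-149636498, Dnaja1 at chr4:40722468-40734965 and Bag3 at chr7:128523583-128546981. All are annotated as protein coding.

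Promoter sequence is shown for 2 members, Hspa5 and Hsph1, because it holds letters that match elements of the responses to ER stress and to heat shock. The window of 250 bases before the start of Hspa5 (GRCm38.p6, chr2:34771840-34772089, plus strand, just upstream of the annotated gene) is printed 5′ to 3′, with the match to the ER stress response element in capitals. The stretch of 20 bases from Hsph1 (chr5:149636352-149636371, minus strand) precedes alternative starts and lies inside the annotated gene, downstream of its outermost start. A match to the short heat-shock form of 2 units is in capitals there. Both were read from RefSeq.
Hspa5: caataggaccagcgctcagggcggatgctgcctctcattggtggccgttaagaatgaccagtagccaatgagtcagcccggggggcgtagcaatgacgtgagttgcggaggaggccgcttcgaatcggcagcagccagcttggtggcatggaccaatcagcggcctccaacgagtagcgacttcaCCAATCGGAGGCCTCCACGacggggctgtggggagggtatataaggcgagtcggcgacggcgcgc
Hsph1: ctTTCTCGAAggctcgagaa

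Promoter windows were matched for 6 of the 8 members, with 9 starts in all. Both strands of the 250 bases before each start were searched. The ER stress response element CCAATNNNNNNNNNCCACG was found in 0.113% of 32851 promoters, and among the members in Hspa5, with its first base 65 bases before the start. The heat-shock element of 3 units (GAANNTTCNNGAA, or TTCNNGAANNTTC on the other strand) was found in 0.466% of promoters and in 0 of the members matched. The shorter form TTCNNGAA, which the 3-unit form contains, was found in 7.17% of promoters and in 1 of the 6 members matched, Hsph1, at 33 and 54 bases before its 2 starts. The form GAANNTTC was found in 6.69% and in 1 of the 6, Dnaja1, 124 bases before its start. With so few members these shares cannot be set apart from the background. Such matches describe letters and not bound sites.

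Signal is the authors' value for a gene after each region was scaled to a common upper quartile of 3.12. Dividing by a region's lowest value returned whole reads for 99.97% of values, within 0.01. The 66 entries that were not numbers were treated as missing (1 of them Hspa4l). By this definition a region's lowest value is 1 read, so no value can lie below it. A gene at 1 read is called at the floor here, and 1 read was worth between 0.208 and 1.56 of signal, depending on the region. Recovered reads per region ran from 9607 to 88156, with medians of 23494 (mock) and 26710 (noise) for neurons and of 12885 (mock) and 16882 (noise) for supporting cells. At the median region, 31.3%, 19.2%, 51.6% and 35.4% of genes were at the floor, in that order. The neuron regions were rich in neuronal markers, with 10 listed genes (among them Nefl, Tubb3 and Thy1) summing to 157 to 382 in mock neurons and to 45.7 to 109 in mock supporting cells. After noise these sums were 103 to 231 in neurons and 32.0 to 97.3 in supporting cells. The supporting-cell regions were rich in genes of Schwann and satellite glia, with 7 genes (among them Pmp22 and Apod) summing to 43.7 to 103 after mock and to 27.0 to 48.3 after noise, against 16.6 to 36.4 and 11.4 to 21.8 in neurons. The organ of Corti supporting-cell markers listed, Sox2 and Prox1, summed to at most 8.58 in any region, so the label "supporting cells" is borne out by glia genes rather than by these markers. Of other cell types, Hba-a1 for blood and C1qc for macrophages had medians of 0.780 to 2.34 in every group. The 4 hair-cell genes listed, led by Pvalb, had summed medians of 18.7 (mock) and 18.5 (noise) in neurons and of 12.5 and 10.8 in supporting cells. The 3 bone and connective tissue genes Sparc, Spp1 and Coch had summed medians of 34.7 and 24.8 in neurons and of 20.3 and 17.2 in supporting cells. By these summed medians both lists were higher in neurons, and the second was also lower after noise. Within the second list the genes were split. Spp1 was higher in mock neurons than in mock supporting cells (means 30.0 and 9.68), but Coch (1.87 and 9.96) and Sparc (1.56 and 3.46) were lower. Of the 2 hair-cell genes tested, Pvalb was higher in mock neurons (13.9 and 6.15) and the other was lower (log2 difference -0.22). The part of both lists in the members' differences was not tested.

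Among the 8 members only Hspa8 stood clear of background in every region. Hspa8 is the constitutive cytosolic Hsp70, which folds new proteins and uncoats clathrin vesicles. It exceeded the negative probe in 50 of 50 regions, was at the floor in 0, and its mean signal of 17.2 was higher than that of 99.6% of genes listed. The other 7 were near the floor. Hspa5 was at 1 read in 14 of 50 regions, Hspa9 in 19, Hspa4 in 18, Hspa4l in 18 of 49, Hsph1 in 20, Dnaja1 in 18 and Bag3 in 16. Their median reads lay between 2 and 3, and each exceeded the negative probe in 30 to 36 regions.

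**Figure D1:**
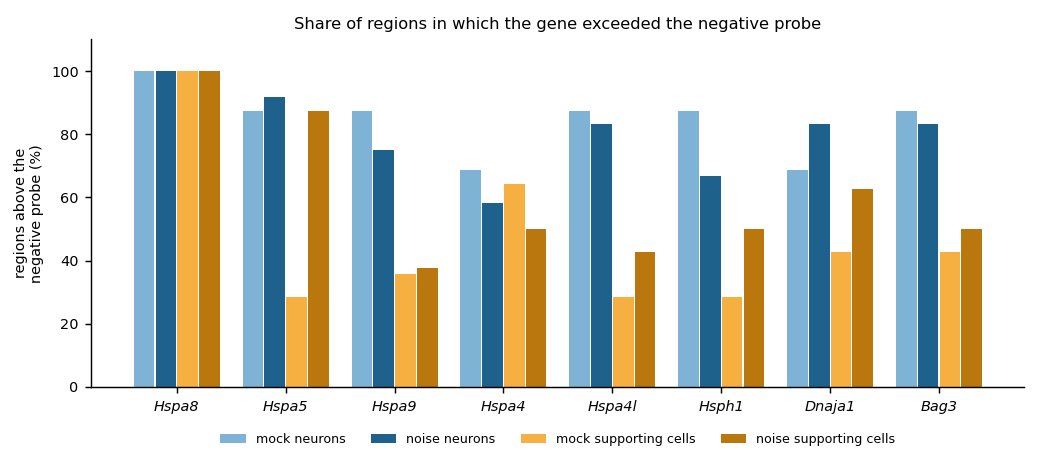
Share of regions, in percent, in which each gene exceeded the negative probe of the same region, for the 4 groups (bars start at 0). Hspa8 stands at 100% in all groups, and in mock supporting cells Hspa5, Hspa4l and Hsph1 stand at 28.6%.

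In mock neurons Hspa8 signal ranged from 17.2 to 35.3 with a median of 23.0, for a mean of 24.9 ± 6.30 (SD, n = 16). In noise neurons it ranged from 13.5 to 37.4 with a median of 19.6 (21.7 ± 6.72, n = 12). These groups overlapped over most of their range. In mock supporting cells it ranged from 3.12 to 18.7 with a median of 8.84 (10.3 ± 5.06, n = 14), and in noise supporting cells from 1.56 to 13.1 with a median of 7.54 (7.65 ± 3.83, n = 8). The order of group means was mock neurons, noise neurons, mock supporting cells, noise supporting cells. The first and second did not differ beyond their spread, nor did the third and the fourth; the middle pair was not tested.

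Hspa8 was higher in neurons than in supporting cells in both treatments. After mock exposure 16 of 16 neuron regions lay above the mean of supporting cells, and 12 of 16 lay above the highest of them. The difference of log2(signal + 1), a scale that understates the change of low genes, was 1.31 (SE 0.19, 95% interval 0.94 to 1.67, limma adjusted p = 1.15e-10 over regions, and so too small). After noise the groups did not overlap, as was the case for 0.363% of genes tested, and the difference was 1.50 (SE 0.23, 1.04 to 1.95, limma adjusted p = 2.75e-08, likewise too small). The spread that limma used for Hspa8 (SD 0.506) was slightly below the gene's own (0.553). The number of neurons in a region, Hspa8 RNA per neuron and Hspa8 RNA in glia cannot be told apart in captured regions.

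The same held within captured areas, where a neuron and a supporting-cell region came from the same field of a section. Over 14 mock areas the neuron region was higher in 13, with a mean log2 difference of 1.34 ± 0.765 (SD; exact sign-flip test, two-sided, unadjusted p = 0.000244). Over 7 noise areas it was higher in 7, with a mean of 1.51 ± 0.682 (exact unadjusted p = 0.0156, the smallest these areas allow). Areas are not tied to animals, so these p-values are too small as well. As a share of the summed neuronal markers, Hspa8 had medians of 10.3% (mock) and 11.9% (noise) for neurons and of 13.1% (mock) and 9.98% (noise) for supporting cells. Its spread was widest in mock supporting cells, at 6.00% to 34.3%. Hspa8 and the neuronal markers were thus both lower in supporting-cell regions; the part of neuronal RNA in the Hspa8 difference was not tested.

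**Figure D2:**
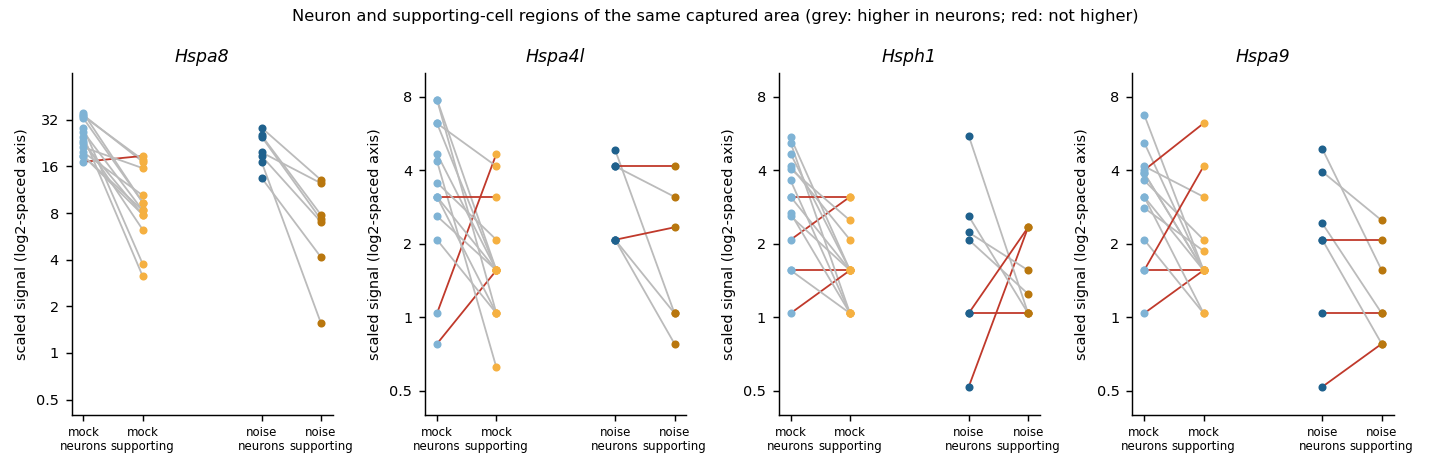
Signal (log2-spaced axis) of Hspa8, Hspa4l, Hsph1 and Hspa9 in neuron and supporting-cell regions joined where they share a captured area, in mock (14 areas) and noise (7 areas, or 6 for Hspa4l). Hspa8 falls from neurons to supporting cells in 13 of 14 and 7 of 7 areas, while the lines of the other 3 genes cross more often.

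Hspa5 encodes the ER chaperone BiP, which holds the unfolded protein sensors inactive until clients accumulate. Neuron regions held 1.04 to 4.68 of signal after mock (median 2.26) and 1.56 to 4.68 after noise (median 2.86). In mock supporting cells it ranged from 1.04 to 3.12 (median 1.56), and in noise supporting cells from 1.04 to 4.68 (median 2.34). The lowest group was mock supporting cells, where 10 of 14 regions were at the floor, against 1 of 8 noise supporting-cell regions. The groups overlapped in every comparison, as did those of all members but Hspa8; among genes tested, groups did not overlap for 0% (noise, neurons), 0.0213% (noise, supporting cells) and 0.619% (region types after mock).

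Means of Hspa5 in neurons were 2.44 ± 0.965 (SD, n = 16) after mock and 2.90 ± 1.09 (n = 12) after noise. In supporting cells they were 1.69 ± 0.809 (n = 14) and 2.61 ± 1.21 (n = 8). Its noise estimate was above 0 in both region types under all settings run, which refit the same regions. No other member had this direction throughout, but Hspa9 and Hspa4 were below 0 in both region types in every setting that tested them. For Hspa5 the estimates were 0.18 (SE 0.20, 95% interval -0.21 to 0.57) in neurons and 0.41 (SE 0.23, -0.04 to 0.86) in supporting cells. Neither passed the threshold (limma adjusted p = 0.727 and 0.561). Limma's spread for Hspa5 (SD 0.519) was above its own (0.410), so these SEs are wider than its own spread gives. For noise against mock in supporting cells an exact permutation test over regions gave an unadjusted p of 0.0448 for Hspa5. The next smallest there was 0.240 (Hspa8). In neurons resampled permutation tests gave smaller unadjusted p-values for 2 members that were lower after noise. These were 0.0389 for Hspa9 (difference -0.47) and 0.0406 for Hsph1 (-0.46), and Hspa5 had 0.256. The Hspa5 value in supporting cells thus does not stand out among these tests. All these p-values are too small, since regions share animals. A noise supporting-cell region had a median of 16882 reads against 12885 in a mock one, so the floor lay lower there, and the part of depth in the Hspa5 values was not tested.

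Hspa9, or mortalin, is the mitochondrial Hsp70 that pulls imported proteins into the matrix. Its signal ranged from 1.04 to 6.76 in mock neurons with a median of 3.77 (3.46 ± 1.47, n = 16). In noise neurons it ranged from 0.520 to 4.90 with a median of 2.21 (2.30 ± 1.33, n = 12). In mock supporting cells it ranged from 1.04 to 6.24 with a median of 1.56 (2.18 ± 1.43, n = 14), and in noise supporting cells from 0.780 to 3.12 with a median of 1.30 (1.61 ± 0.871, n = 8). Mock neurons were highest, with 10 of 12 noise neuron regions below their mean, but the ranges of all neighbouring groups overlapped.

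The Hspa9 difference between mock neurons and mock supporting cells was 0.51 (SE 0.19, 0.14 to 0.88, limma adjusted p = 0.0411 over regions), a call close to the threshold. It was lost in 8 of 18 alternative settings, among them edgeR on recovered reads (adjusted p = 0.268). Within mock areas it was higher in neurons in 10 of 14, with a mean of 0.46 ± 0.724. In neurons the noise estimate for Hspa9 was -0.47 (SE 0.20, -0.86 to -0.08, limma adjusted p = 0.266), which did not pass.

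Hspa4, Hspa4l and Hsph1 are Hsp110-type relatives that act as exchange factors for Hsp70 and hold unfolded clients. Hspa4 signal in neurons ranged from 0.780 to 3.90 after mock (median 2.08) and from 0.520 to 3.12 after noise (median 1.14). In supporting cells it ranged from 1.04 to 4.68 (median 2.08) and from 0.780 to 4.37 (median 1.56). All these ranges overlap. The highest group mean was in mock supporting cells (2.47 ± 1.34, n = 14) and the lowest in noise neurons (1.57 ± 0.855, n = 12). The remaining means were 1.94 ± 1.23 (n = 8) for noise supporting cells and 1.90 ± 0.778 (n = 16) for mock neurons. Its log2 differences lay between -0.23 and -0.17 in the 4 comparisons of 2 groups, and none passed.

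Hspa4l, named for its likeness to Hspa4, ranged from 0.780 to 7.80 in mock neurons with a median of 3.34 (4.12 ± 2.41, n = 16). In noise neurons it ranged from 0.520 to 4.85 with a median of 2.73 (2.94 ± 1.36, n = 12). In mock supporting cells it ranged from 0.624 to 4.68 with a median of 1.56 (1.94 ± 1.20, n = 14). In noise supporting cells it ranged from 0.780 to 4.16 with a median of 1.04 (1.89 ± 1.34, n = 7), where the entry of 1 region was not a number and was dropped by the fit. Mock neurons were highest, with 5 of 16 regions above every mock supporting-cell region, and 10 of 14 of the latter were at the floor.

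The difference between mock neurons and mock supporting cells was 0.73 for Hspa4l (SE 0.19, 0.35 to 1.11, limma adjusted p = 0.0019 over regions). Limma's spread for this gene (SD 0.528) was below its own (0.625), so this SE is too small. Within mock areas Hspa4l was higher in neurons in 11 of 14, with a mean of 0.72 ± 0.960. The DESeq2 test on recovered reads gave an adjusted p of 0.0714. With the mean of the olfactory receptor genes as a covariate, a measure of background, limma gave 0.258.

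Hsph1, or Hsp105, is the heat-inducible one of these factors. Its signal ranged from 1.04 to 5.46 in mock neurons with a median of 3.38 (3.39 ± 1.39, n = 16) and from 0.520 to 5.54 in noise neurons with a median of 1.82 (2.29 ± 1.47, n = 12). In mock supporting cells it ranged from 1.04 to 3.12 with a median of 1.56 (1.74 ± 0.715, n = 14), and in noise supporting cells over the same range with a median of 1.40 (1.72 ± 0.789, n = 8). Mock neurons were highest, with 8 of 16 regions above every mock supporting-cell region. The supporting-cell groups were alike in range, and noise neurons spread over both levels.

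The Hsph1 difference between mock neurons and mock supporting cells was 0.65 (SE 0.19, 0.28 to 1.02, limma adjusted p = 0.00594 over regions), and in mock areas it was higher in neurons in 10 of 14 (0.58 ± 0.619). It was lost in edgeR (adjusted p = 0.0621), in DESeq2 (0.161), and in limma with olfactory receptor signal (0.46) or log2 reads (0.0979) as a covariate. After noise the region difference was 0.21 (SE 0.24, -0.26 to 0.67, limma adjusted p = 0.704). The noise estimate in neurons was -0.46 (SE 0.20, -0.85 to -0.07, limma adjusted p = 0.273).

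Dnaja1, a J-domain partner of cytosolic Hsp70, ranged from 0.520 to 4.68 in mock neurons with a median of 2.21 (2.49 ± 1.39, n = 16) and from 1.04 to 4.16 in noise neurons with a median of 2.08 (2.15 ± 0.948, n = 12). In mock supporting cells it ranged from 0.624 to 3.12 with a median of 1.56 (2.01 ± 0.919, n = 14), and in noise supporting cells from 1.04 to 6.24 with a median of 1.95 (2.68 ± 1.97, n = 8). The groups overlapped over most of their range, and 2 noise supporting-cell regions lay above all mock ones. Differences between groups lay between -0.12 and 0.20, and none passed.

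Bag3 links Hsp70 to small heat-shock proteins and to autophagy of its clients. In neurons it ranged from 0.780 to 7.80 after mock with a median of 2.15 (2.55 ± 1.57, n = 16) and from 0.780 to 4.16 after noise with a median of 2.60 (2.41 ± 1.10, n = 12). In supporting cells it ranged from 1.04 to 7.28 after mock with a median of 1.56 (2.45 ± 1.77, n = 14) and from 0.780 to 4.16 after noise with a median of 1.82 (1.98 ± 1.20, n = 8). The 4 groups could not be ordered beyond their spread. Differences lay between -0.18 and 0.22, and none passed.

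**Figure D3:**
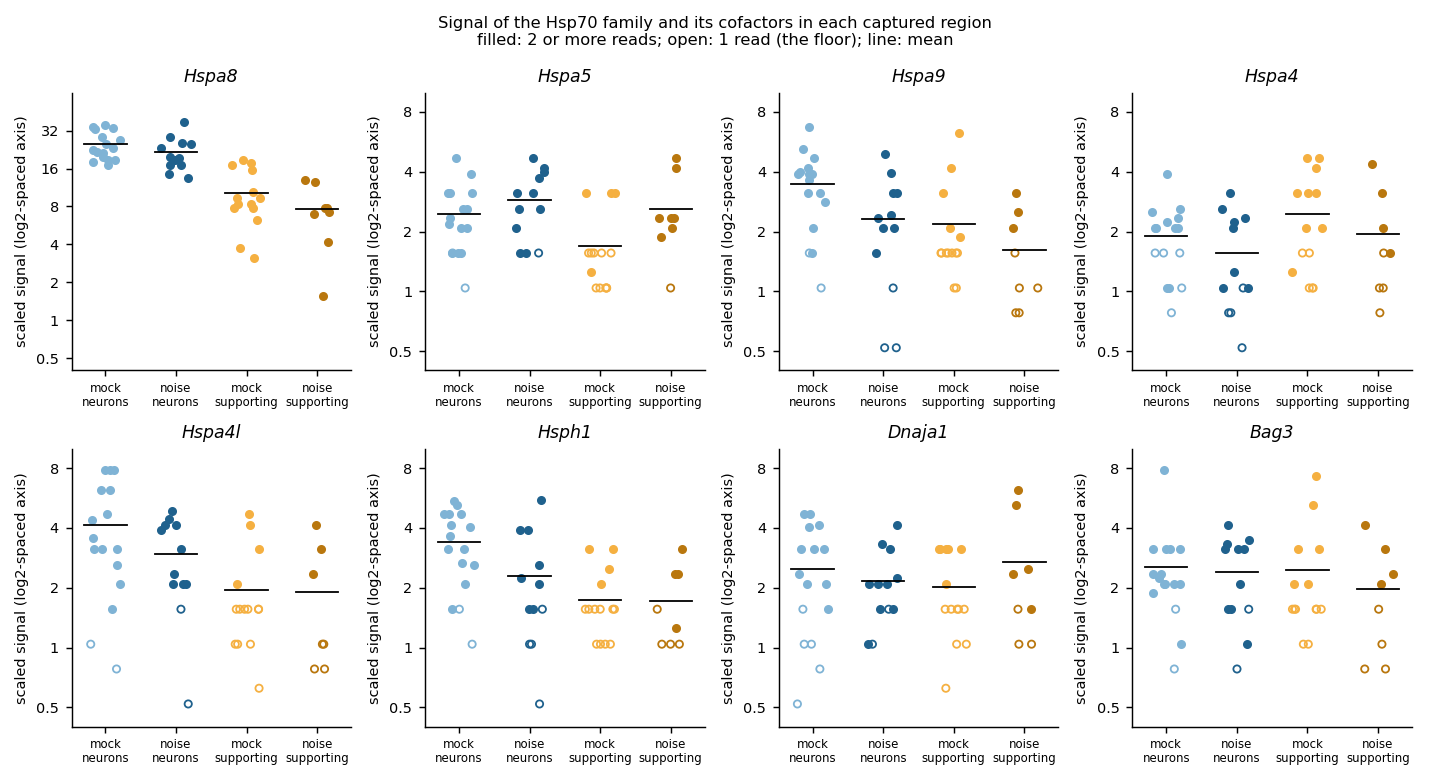
Signal of the 8 genes in each captured region (log2-spaced axis) by region type and treatment; filled points hold 2 or more reads, open points 1 read, and lines are means. Hspa8 in neurons sits between 13.5 and 37.4, and the other genes crowd near the floor in supporting cells.

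Counted together, 4 of 8 members were called higher in neurons after mock exposure (Hspa8, Hspa4l, Hsph1, Hspa9) and 0 lower, where 19.1% of the 4686 genes tested were called, 13.4% higher and 5.63% lower. That split of 629 higher and 264 lower genes moved with scaling, to 508 and 523 with a common total, 457 and 525 with median centring and 1029 and 72 with the negative probe subtracted. The filter on low values, a mean over all regions, was passed by 8 of 8. The members' median difference was 0.44, against -0.05 over all genes tested. After noise 1 of 8, Hspa8, was called higher and 0 lower, where 7.94% of genes were called, 6.76% higher and 1.17% lower, with a members' median of 0.21 against 0.05. The genome-wide split after noise, 317 higher and 55 lower, was 226 and 105 by quantile normalization or a common total. The Hspa8 difference was called in all 18 alternative settings in each of these comparisons. The counts after mock exposure were 2 by edgeR, 1 by DESeq2, 1 with olfactory receptor signal as a covariate and 2 with log2 reads as a covariate, each of which keeps Hspa8.

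Noise against mock called 0 of 8 members in neurons, where 0.662% of genes were called (0.213% higher and 0.448% lower). In supporting cells it called 0 of 8, where 0.363% were called (0.064% higher and 0.299% lower). EdgeR and DESeq2 also called 0 members in both. The counts behind these shares, 31 and 17 genes, fell to 12 without noise neurons replicate 2 and to 3 without noise supporting cells replicate 7. Median centring moved the split of called genes from 10 higher and 21 lower to 2 and 101 in neurons, and from 3 and 14 to 2 and 108 in supporting cells. In neurons Hspa9 and Hsph1 had unadjusted limma p below 0.05 (0.0183 and 0.0200), as did 632 of the 4686 genes tested. There 7 of 8 estimates were below 0, with a median of -0.20 against 0.02 over all genes, of which 46.3% were below 0. The number below 0 was 5 to 7 of 8 over the scaling alternatives, and quantile normalization turned the Hspa8 estimate to 0.11. In supporting cells 6 of 8 estimates were below 0 (median -0.12 against -0.03 over all genes, of which 54.2% were below 0). The number was 4 of 8 by edgeR, DESeq2, a common total or negative-probe subtraction. An unadjusted limma p below 0.05 was found there for 0 of 8 members and for 474 of the 4686 genes tested. Neuronal marker signal was lower in noise neurons too, with 10 of 10 genes below 0 (median -0.42, Nefh called), and the summed glia genes were lower in both region types after noise. The part of either in these estimates was not tested.

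The noise effect was compared between region types by a difference of differences, neurons minus supporting cells. Limma called 0 of 8 members and 0% of the 4686 genes tested, of which 263 had an unadjusted p below 0.05. EdgeR and DESeq2 called 0 genes, with 187 and 124 below that unadjusted p. The largest member estimate was -0.44 for Hsph1 (SE 0.30, -1.03 to 0.15, limma adjusted p = 0.885). The interval for Hspa8 was -0.39 to 0.77. The region difference of Hsph1, called after mock and not after noise, is thus not shown to differ between treatments.

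**Figure D4:**
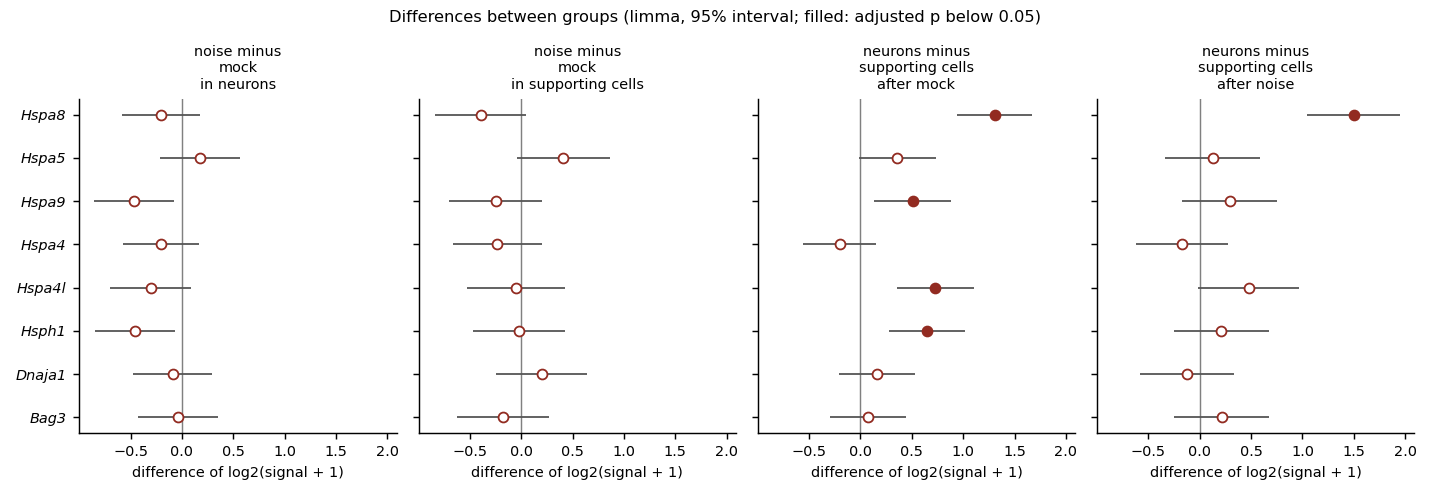
Differences of log2(signal + 1) with 95% intervals (limma) for the 8 genes in the 4 comparisons, filled where the adjusted p is below 0.05. Filled points appear for Hspa8, Hspa9, Hspa4l and Hsph1 in the mock region comparison and for Hspa8 in the noise region comparison, with none in the noise-against-mock panels.

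The rest of the pathway was read from lists of genes. Of the other Hsp70-type chaperones, 2 were tested (Hspa12a and the ER exchange factor Hyou1), and 0 were called in any comparison. The same count of 0 held for 8 J-domain proteins, 6 exchange factors and Hsp70 partners, 13 ER chaperones and unfolded protein response genes and 9 mitochondrial quality control genes. Of all genes tested, 19.1% were called between region types after mock and 7.94% after noise. For noise against mock 0.662% (neurons) and 0.363% (supporting cells) were called, and 0% for the difference of effects. Hspa1a and Hspa1b, the stress-induced cytosolic Hsp70 genes, were not among the 6248 genes listed and so could not be analysed here.

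Of 8 cytosolic heat-shock genes tested, 8 had noise estimates below 0 in neurons, where 46.3% of all genes and 10 of 10 neuronal markers did. The median was -0.36, against -0.42 for the markers. In this list 1 gene was called, where 0.448% of all genes were called lower: Ubb, which encodes ubiquitin (-0.57, SE 0.14, limma adjusted p = 0.0224 over regions). Ubb fell from 54.0 ± 14.4 in mock neurons to 36.5 ± 10.8 in noise neurons. After mock exposure 5 of these 8 were called higher in neurons and 2 were called lower, where 13.4% and 5.63% of all genes were. The Hsp90 chaperone Hsp90aa1, which takes clients from Hsp70, was 18.7 ± 4.50 in mock neurons and 7.86 ± 4.01 in mock supporting cells (log2 difference 1.27, SE 0.20). The small heat-shock protein gene Cryab was 4.37 ± 1.28 and 12.9 ± 4.29 (-1.34, SE 0.21).

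Of 7 autophagy partners of Bag3, 3 were called higher in neurons after mock exposure, where 13.4% of all genes were, and 2 after noise, where 6.76% were. The LC3 gene Map1lc3a, which marks autophagosomes, was 5.32 ± 1.98 in mock neurons and 2.70 ± 1.79 in mock supporting cells (0.82, SE 0.20, limma adjusted p = 0.000718 over regions). After noise it was 5.20 ± 2.50 and 2.31 ± 1.16 (0.88, SE 0.25, limma adjusted p = 0.010).

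Within groups the correlations between members were mostly low. All members but Hspa8 had median reads of 2 to 3, so low values here do not show that the genes vary independently. Each member's median correlation with the genes compared lay between 0.004 and 0.052. With each gene centred on its group mean, correlations of log2(signal + 1) over 50 regions, with the missing Hspa4l entry set to its group mean, ranged from -0.25 for Hsph1 and Bag3 to 0.33 for Hspa8 and Hspa4l, and all points share the region's depth and scaling. Correlation with log2 reads, centred the same way, lay between -0.05 and 0.20. The genes most like Hspa8 were Map1b (r = 0.72), a neuronal microtubule protein, Fth1 (0.69), ferritin heavy chain, and Nefh (0.63), neurofilament heavy chain. As the 3 highest of 4685 genes, they lie above the 99th percentile over all genes (0.46) by the way they were picked. Those most like Hsph1 were Baz1b (0.66), Usp47 (0.58) and Hsp90ab1 (0.53), and those most like Hspa5 were Ryk (0.61), Atp6v0e2 (0.52) and Thrap3 (0.51). Their median reads were 2 to 2.5 except for Hsp90ab1 (8.5), so these values rest on few reads. For Hspa9 the nearest gene was Cdk16 (0.53), for Hspa4 Med19 (0.53), for Hspa4l Ik (0.57), for Dnaja1 Rpl36al (0.56) and for Bag3 Pisd (0.49).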

How the data were processed

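GeoMx signal was deposited by the authors for 51 regions as 1 table per region and 1 table of the series, which held the same values. The deposited signal had been scaled by the authors to a common upper quartile, as the values show; the labels' processing notes name DRAGEN with mm10 and GRCm38, and how counts of 0 were treated is not given in the sources used here. Reads were recovered as a value over the region's lowest value, and 99.97% were within 0.01 of a whole number. A total of 66 entries held a letter and were treated as missing.

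Limma 3.58.1 in R 4.3.3 was run on log2(signal + 1), with 4 group means over 50 regions, for the 4686 genes whose mean reached the 0.25 quantile (1.85). P-values were adjusted by Benjamini-Hochberg over these genes and called below 0.05. The SEs rest on a spread common to genes of similar mean. edgeR 4.0.16 and DESeq2 1.42.0 on recovered reads were alternatives, with the missing Hspa4l entry filled by its group's mean share. Other settings covered pseudocount, filter, scaling, background and blocks. Replicate numbers did not pair the regions: of 20 noise and mock pairs and 21 neuron and supporting-cell pairs with the same number, 0 correlated above 0.1. Pairs that share a captured area were little more alike, with 1 of 21 above 0.1 and a median of 0.027. Code was tested on simulated data. Genes named by rule are the members, their 3 nearest genes by correlation (for 5 members only the nearest is printed) and called genes of the lists; uncalled list genes and markers are named only to say what a list held. The members and lists were chosen with earlier results of these data known, and permutation p-values, within areas or over regions, are unadjusted. Sequences came from RefSeq for GRCm38.p6. Some markers of the cell type lists are not reported here and were left out of their list's sum.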

Additional observations from a re-analysis of the deposited data

How the results depend on the processing

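Of the 8 genes, the number called after noise was 0 in neurons, 0 in supporting cells and 0 for the difference of effects in every alternative run, and 1 (Hspa8) for neurons against supporting cells after noise. After mock exposure the number was 4, and it was 2 by edgeR, 1 by DESeq2, 1 with olfactory receptor signal and 2 with log2 reads as a covariate, and 3 to 4 with each region left out in turn. Hspa9 lost its call on leaving out any 1 of 19 mock regions: neurons replicates 1, 2, 5, 7, 9, 10, 12, 13 or 16, and supporting cells replicates 1, 2, 3, 4, 5, 6, 7, 9, 10 or 12 (highest adjusted p 0.0821). With the replicate block the numbers were 0, 0, 4, 1 and 0. Subtracting the negative probe called Hspa5 as well (0.83, adjusted p = 0.0203).

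None of the estimates that changed sign passed the threshold. Noise in neurons: Hspa8 0.11 by quantile normalization; Bag3 0.19 (edgeR), 0.11 (DESeq2), 0.0072 (quantile) and 0.0025 (common total). Noise in supporting cells: Hspa4l 0.035, 0.026, 0.030 and 0.0069 by the same settings, 0.18 (negative probe) and 0.075 (common floor, chosen after seeing the data); Hsph1 0.018 (edgeR), 0.020 (DESeq2), 0.011 (common total), 0.081 (negative probe), 0.058 (olfactory covariate) and 0.032 (common floor). Mock region difference: Bag3 -0.27 (edgeR), -0.32 (DESeq2), -0.022 (common total) and -0.044 (median centring). Difference of effects: Hspa4 -0.00054 (pseudocount 0.1), -0.37 (edgeR), -0.36 (DESeq2) and -0.010 (olfactory covariate); Bag3 -0.071 (negative probe). With each region left out, Bag3 ran from -0.100 to 0.055 for noise in neurons and -0.020 to 0.18 for the mock region difference, Hspa4l from -0.21 to 0.045 and Hsph1 from -0.11 to 0.032 for noise in supporting cells, Dnaja1 from -0.22 to 0.037 for the noise region difference, and Hspa4 from -0.059 to 0.17 and Hspa8 from -0.037 to 0.31 for the difference of effects. The cause was not tested.

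Over all genes, counts after noise were unstable. Noise in neurons called 31, and 150 by edgeR, 132 by DESeq2, 103 by median centring, 47 with pseudocount 10, 20 with a common floor, 19 with the replicate block, 7 with the negative probe subtracted, 6 by quantile normalization and 3 with the olfactory covariate. Leaving out 1 region gave 12 to 35, under 31 by over 1.5 times without noise neurons replicate 1 (16), 2 (12), 9 (19) or 10 (16) or mock neurons replicate 9 (19) or 10 (19). Noise in supporting cells called 17, and 110 by median centring, 53 by quantile normalization, 26 with pseudocount 10, 11 with no filter, 8 by edgeR, 7 with pseudocount 0.1 and 4 with only the groups compared. Leaving out 1 region gave 3 to 21, under 17 by over 1.5 times without noise supporting cells replicate 4 (11), 5 (7), 7 (3) or 8 (7) or mock supporting cells replicate 6 (10), 8 (11), 9 (11) or 12 (9). Region types after mock called 893, and 542 by DESeq2, 407 with the olfactory and 581 with the log2 reads covariate. After noise they called 372, and 229 by DESeq2 and 238 with the log2 reads covariate. Hspa4 fell below the filter at the 0.5 quantile, which left 7 members tested. Median centring shifted the median of all genes to -0.11 for noise in neurons, -0.20 in supporting cells and -0.17 for the mock region difference. For 7 members, reads of 2 to 3 limit what could be detected.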
